A study of Mus musculus with 6 samples.

Results

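The genes described here encode CTCF, its germline paralog BORIS and the cohesin complex with its loading and release factors, as they appear in accessible chromatin of the mouse kidney. The members were Ctcf, Ctcfl (which encodes BORIS), Smc1a, Smc3, Rad21, Stag1, Stag2, Nipbl and Wapl, that is 9 of 21757 protein-coding genes. Every distinct accessible interval that overlapped the stretch from 3000 bp upstream of a member's gene start to its gene end was assigned to that gene, which gave 90 of 279569 intervals, and no interval was shared by 2 members. The rule itself used no measured value.

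The study asked how loss of ATP citrate lyase (Acly), an enzyme that makes acetyl-CoA from citrate, changes chromatin in the kidney, and used ATAC-seq, in which the Tn5 transposase cuts open chromatin and the cut fragments are sequenced. The labels gave 3 WT libraries and 3 Acly cKO libraries. The study's methods describe the controls as littermate Acly fl/fl mice without Cre, and the Acly cKO mice as Acly fl/fl mice that also carried Ksp-Cre. This Cre is driven by the Cdh16 promoter in tubular epithelium, so that other kidney cells keep the gene. All libraries were labelled Control for treatment and came from kidney cortex nuclei. The age and sex of these mice are not given in the sources used here. The labels placed the WT libraries in batches 1, 1 and 2 and the Acly cKO libraries in batches 4, 4 and 5, and since no batch holds both genotypes, an effect of batch and one of genotype cannot be told apart. The deposited peak call was 1 pooled call with no value for any single library, so that each value below is a single number without replicate error, no genotype comparison could be made, and every statement is a description with no test.

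CTCF is a zinc-finger protein that binds a long DNA site and marks the borders of chromatin loops. Cohesin is a ring built from SMC1A, SMC3, RAD21 and a STAG subunit. It is loaded and driven along DNA with the help of NIPBL, released by WAPL, and halted at bound CTCF. BORIS shares the zinc-finger region of CTCF, is expressed mainly in the testis, and is silent in most somatic tissue.

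Ctcf and its paralog Ctcfl differed at their starts, and the bases just upstream of their starts are shown because their CpG content differed as well. Both runs are the 120 bases before the start, 5′ to 3′ on the strand of the gene in GRCm39, with each CpG in capitals. The Ctcf run is chr8:106362802-106362921 on the plus strand and the Ctcfl run is chr2:172961319-172961438 on the minus strand.
Ctcf: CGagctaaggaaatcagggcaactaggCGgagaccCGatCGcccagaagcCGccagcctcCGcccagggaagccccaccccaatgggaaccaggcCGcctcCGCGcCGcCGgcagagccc
Ctcfl: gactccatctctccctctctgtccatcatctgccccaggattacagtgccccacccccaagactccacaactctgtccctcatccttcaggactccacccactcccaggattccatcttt
The Ctcf run held 11 CpG and the Ctcfl run held 0.

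At the start of Ctcf, on chromosome 8 at 106362922 to 106409564 on the plus strand (ENSMUSG00000005698.17), an interval of 4053 bp reached a fold enrichment of 36.3 with a −log10 q of 645. Fold enrichment here is the ratio of the read pileup at an interval's highest summit to background, as the peak caller gave it. Each fold value had the same −log10 q wherever it occurred, so that the background was a single value for the whole genome and local differences in background were not taken out. At Ctcfl, on chromosome 2 at 172934655 to 172961318 on the minus strand (ENSMUSG00000070495.14), no interval covered the start, and the highest within 1000 bp reached 2.03 with a −log10 q of 2.84. The ratio of these folds was 17.9. Among all protein-coding genes, 68.9% had a lower fold than Ctcf within 1000 bp of the canonical start and 25.7% had a lower one than Ctcfl. The canonical start is that of the transcript that GENCODE marks as representative, and a gene without an interval there counted as 0. Since 75.8% of genes had an interval there, most of the genes below Ctcfl had none. The fold taken is that of the highest summit of an interval that reaches into this window, and that summit can lie outside the window.

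The Ctcf interval held 6 summits. Its highest lay at +337 bp, in exon 1, and none of the others exceeded 3.67, so that the signal was concentrated in a single peak downstream of the start. The same interval also contained the starts of 2 genes on the opposite strand, Agrp, which encodes a neuropeptide of the hypothalamus, at +1143 bp and the long noncoding RNA gene Gm5914 at +1195 bp. The signal cannot be divided among the 3 genes from position alone. The same limit holds for Smc1a, Smc3, Stag2, Nipbl and Wapl, whose start intervals also held starts of other genes.

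Within its body Ctcf had 6 further intervals. The next highest reached 7.59 in intron 1 at +4428 bp. In intron 2 the folds were 4.65 at +15067 bp and 3.21 at +25089 bp, and the remaining 3 lay between 1.83 and 1.90. The interval at the start was 4.78 times as high as the next.

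Ctcfl showed another arrangement, since its highest interval lay inside the gene. The intervals nearest to its start had folds of 2.03 at +519 bp in intron 1 and 1.77 at -804 bp. The highest was 2782 bp wide, at chr2:172947657-172950438, and reached a fold of 10.7 with a −log10 q of 108 in intron 7, at +11960 bp. Of its 10 summits, the next reached 10.7 at +12167 bp and 9.76 at +12420 bp, which made it a broad cluster and not a single peak. The last interval, in intron 8, was the weakest. Over the whole searched region, the highest fold of Ctcf was 3.38 times that of Ctcfl.

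Both Ctcfl transcripts in the annotation start at the same base, and no annotated transcript started in the intron 7 interval. The long noncoding RNA gene Ctcflos runs across it on the opposite strand, and its nearest transcript start lay 18171 bp from the summit. The 200 bases around the summit, chr2:172949258-172949457 on the plus strand of GRCm39, are shown because they hold a match to the CTCF consensus, in capitals, with 1 mismatch.
Ctcfl intron 7: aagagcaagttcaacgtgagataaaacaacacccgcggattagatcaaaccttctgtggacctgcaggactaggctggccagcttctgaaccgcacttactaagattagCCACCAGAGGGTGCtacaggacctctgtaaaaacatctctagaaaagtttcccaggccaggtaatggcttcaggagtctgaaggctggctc
The centre of the 14-base match lay 16 bp from the summit. A match of letters is a description of the sequence, and CTCF binding was not measured here.

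**Figure D1:**
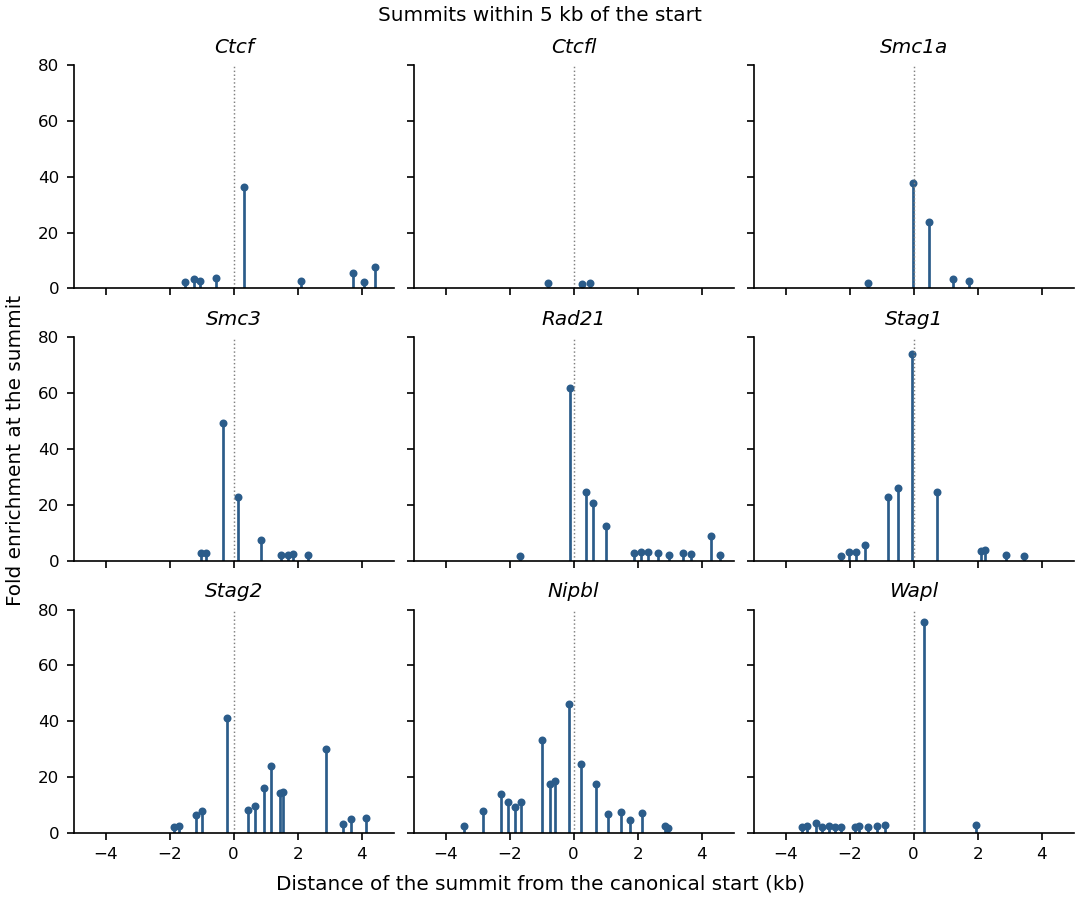
Fold enrichment of each summit (vertical axis) within 5 kb of the canonical start (horizontal axis, in kb, in the direction of transcription) for the 9 genes. Each line is 1 summit of the pooled call. Ctcfl alone had no summit above 2.03 in this window, and Ctcf and Wapl had a single high summit just downstream of the start.

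The 3 ring subunits that form the core of cohesin each had an interval over the canonical start. Smc1a encodes the SMC1A ATPase subunit and lies on chromosome X at 150799424 to 150846390 on the plus strand (ENSMUSG00000041133.13). Its start interval reached 37.8, with a −log10 q of 681 and the summit at -31 bp, and a second summit of 23.6 stood at +480 bp. The canonical start of Ribc1, a gene on the opposite strand, lay at -73 bp in the same interval. Only 1 other interval was found at Smc1a, with a fold of 2.03 at -1441 bp, and none lay in the gene body beyond the start interval.

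Smc3, which encodes the partner ATPase subunit SMC3, lies on chromosome 19 at 53588818 to 53634295 on the plus strand (ENSMUSG00000024974.12). Its start interval reached 49.3, with a −log10 q of 974 and the summit at -338 bp from the canonical start, and a second summit of 22.8 lay at +135 bp. The start of Gm50402, an unclassified transcript, lay at -987 bp in the same interval. The other 4 intervals were weak, with the highest at 2.68 in intron 2. SMC1A and SMC3 form a heterodimer. Their genes had a strong start and almost no signal in the body, but this layout was not particular to them. Stag2 had it too, with at most 3.08 outside its start interval. Both Smc1a and Stag2 are X-linked. Their intervals per 10 kb exceeded those of 21.4% and 22.3% of all protein-coding genes, but of 50.4% and 52.6% of X-linked ones.

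Rad21 encodes the kleisin that closes the ring and lies on chromosome 15 at 51825636 to 51855179 on the minus strand (ENSMUSG00000022314.12). It differed in layout from the SMC genes. Its start interval, 5883 bp wide with 13 summits, reached 61.9 with a −log10 q of 1315, and its summit lay at -107 bp. Summits of 24.6, 20.8 and 12.4 followed at +386, +602 and +1008 bp. A further 18 intervals lay in the searched region, which gave 5.84 intervals per 10 kb, more than in 95.8% of protein-coding genes. Of the 19 intervals, 12 had a fold below 3. Counted with q below 1e-05 or with a fold of at least 5, the density exceeded that of 89.2% and 88.1% of genes. All 19 intervals together covered 57.7% of the searched region, more than in 82.4% of genes. The highest away from the start was 15.6 in intron 1 at +7803 bp, followed by 10.8 just past the gene end at +30222 bp and 6.74 in intron 2.

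**Figure D2:**
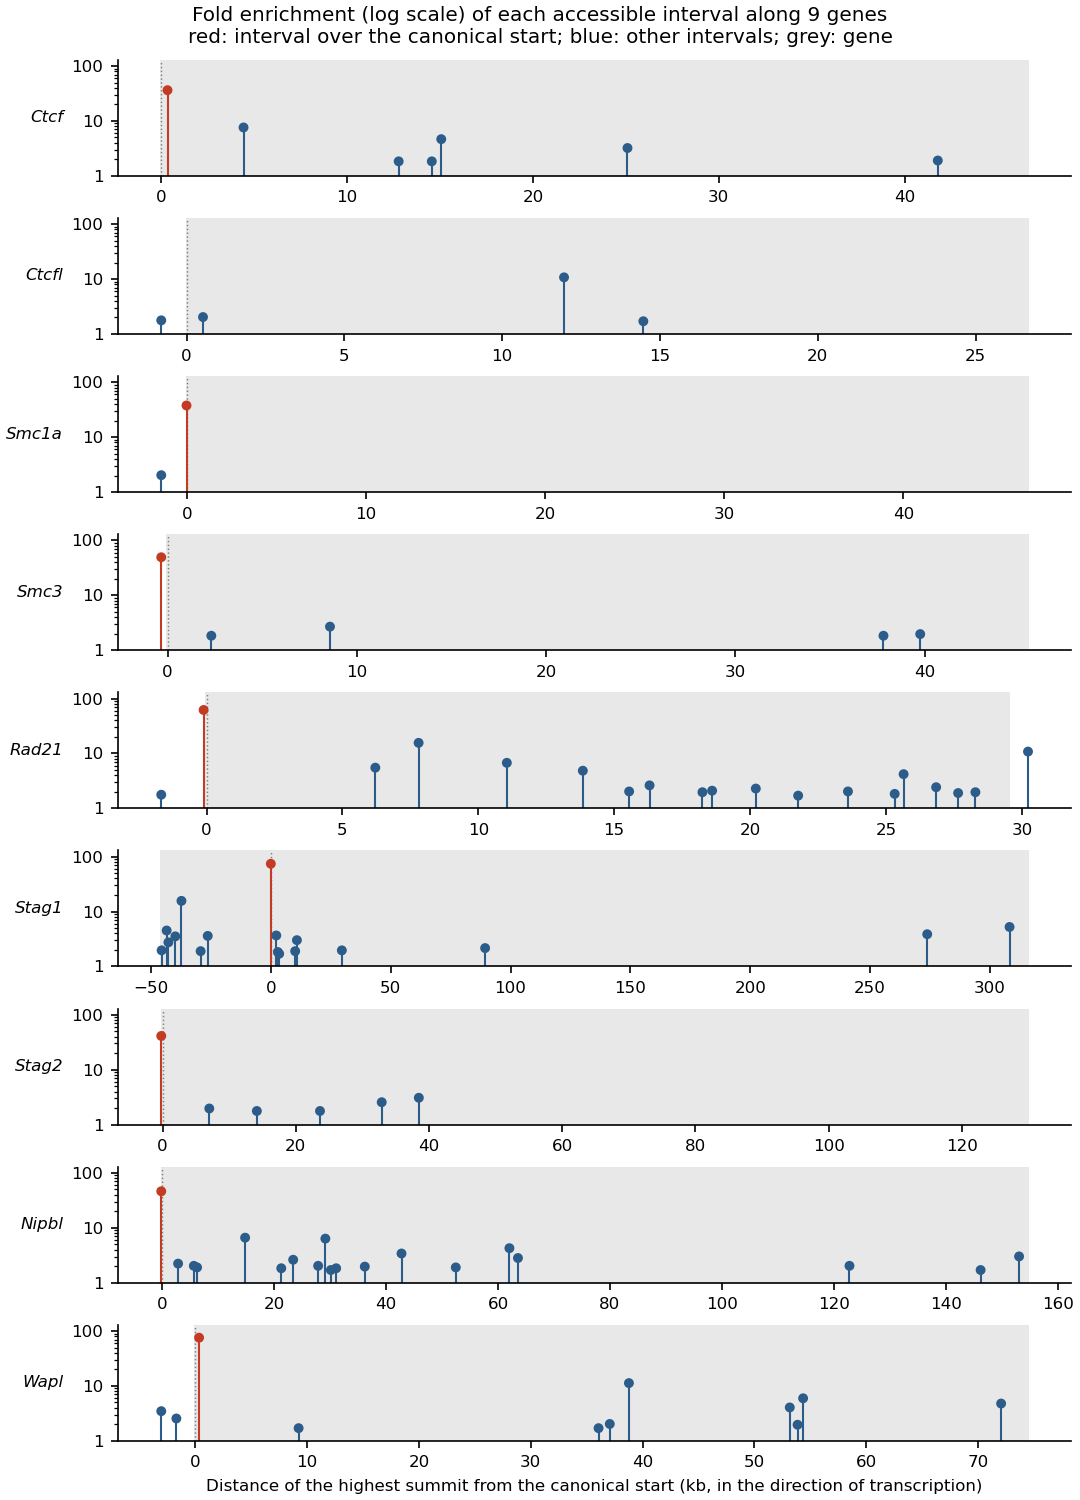
Fold enrichment (vertical axis, log scale) of each of the 90 intervals, drawn at its highest summit, against distance from the canonical start (horizontal axis, in kb, a separate scale for each gene). Red marks the interval over the canonical start, blue the others, and grey the gene. In 8 genes the red interval was the highest, Ctcfl had none, and Rad21 was the most densely filled.

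STAG1 and STAG2 are alternative subunits that bind RAD21, and a cohesin ring holds one or the other. Stag1 lies on chromosome 9 at 100479740 to 100841428 on the plus strand (ENSMUSG00000037286.17), is 362 kb long and had the second highest start among the 9 genes, with a fold of 74.2 and a −log10 q of 1664 at -41 bp from the canonical start. The annotated gene start lay far upstream, and the interval there reached only 1.96. The canonical start, at 100525501, was the start of 12 of its 34 transcripts. Around it, summits of 26.1 at -490 bp, 22.7 at -813 bp and 24.7 at +744 bp flanked the highest.

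Of the other 16 Stag1 intervals, 7 lay upstream of the canonical start. The highest of these reached 15.6 at -37337 bp. Intervals also reached 5.24 in exon 30 and 4.52 at -43508 bp. Because the gene is long, the density was only 0.466 intervals per 10 kb, higher than in 22.6% of genes.

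Stag2 lies on chromosome X at 41238146 to 41368132 on the plus strand (ENSMUSG00000025862.16). Its start interval, 6360 bp wide with 15 summits, reached 41.2 with a −log10 q of 766 at -211 bp, and a separate summit of 29.9 stood at +2886 bp. The starts of Gm37564, an unclassified transcript, and Gm56676, a long noncoding RNA gene, lay in the same interval at +864 and -237 bp. All 5 other intervals were in intron 1 and reached at most 3.08. The paralogs thus differed in their starts, 74.2 against 41.2, and Stag2 had no interval beyond intron 1. Of these genes only Smc1a and Stag2 lie on the X chromosome, where 45.1% of 982 protein-coding genes had a start fold of at least 5. The median start fold was 3.08 on X and 19.4 over all protein-coding genes, and the median intervals per 10 kb were 0.382 and 1.86. Stag1 lies on chromosome 9, so that a difference of paralog and one of chromosome cannot be told apart here.

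NIPBL loads cohesin onto DNA and supports loop growth. Nipbl lies on chromosome 15 at 8319309 to 8473990 on the minus strand (ENSMUSG00000022141.9), and its start interval, 6187 bp wide with 16 summits, reached 46.3 with a −log10 q of 896 at -157 bp. A second group of summits, with the highest at 33.1, lay at -985 bp, near the start at -820 bp of the long noncoding RNA gene Gm63261 on the opposite strand. Nipbl had 19 intervals, 15 of them in intron 1. The highest of these reached 6.61 at +14822 bp, 6.35 at +29160 bp and 4.26 at +62037 bp, so that the first intron held most of the weak signal of the gene.

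Wapl encodes the factor that opens the ring and lets cohesin go. It lies on chromosome 14 at 34395458 to 34469941 on the plus strand (ENSMUSG00000041408.20) and had the highest start fold of the 9 genes, 75.7 with a −log10 q of 1708, at +336 bp in exon 1. The other 4 summits of that interval lay between 2.10 and 2.68. The long noncoding RNA gene 5830448L01Rik started in the same interval at +306 bp on the opposite strand. The highest summit thus lay close to that start too, and the signal cannot be divided between the genes from position alone. Among 10 further intervals, the highest were 11.3 in intron 4 at +38785 bp, 5.96 in intron 8 and 4.78 in intron 18. Loader and release factor thus both had strong starts, at 46.3 and 75.7.

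Across the 9 genes, all 9 had an interval within 1000 bp of the gene start, against 74.3% of all protein-coding genes. A fold of at least 5 within 1000 bp of the gene start was found for 7 of 9, against 64.3% of all genes, with Ctcfl and Stag1 below it. At the canonical start the count was 8 of 9, against 66.2% of all genes, and Ctcfl was the exception. The median start fold was 46.3 over the 9 genes and 19.4 over all protein-coding genes. The 8 somatic genes spanned 36.3 to 75.7, in the order Ctcf, Smc1a, Stag2, Nipbl, Smc3, Rad21, Stag1 and Wapl. With 1 pooled value per gene, no spread was at hand to say which neighbours in this order differ. Smc1a and Stag2 are X-linked, and the part of their chromosome in this order was not tested.

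**Figure D3:**
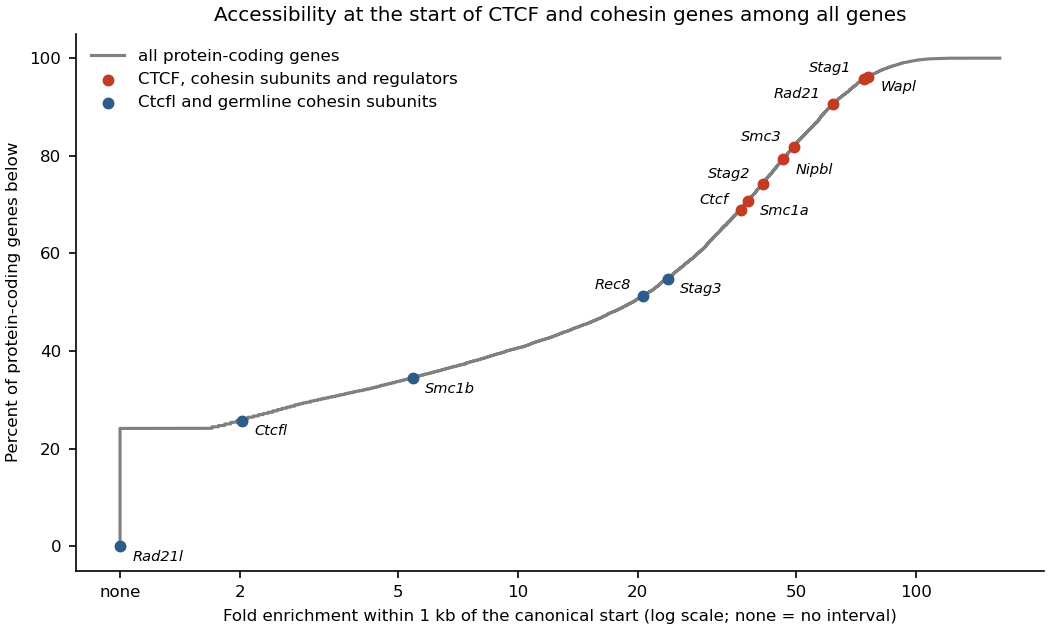
Percent of 21757 protein-coding genes with a lower value (vertical axis) against fold enrichment within 1 kb of the canonical start (horizontal axis, log scale, genes without an interval drawn at none). Red points are Ctcf, the cohesin subunits and their regulators, from 36.3 to 75.7, and blue points are Ctcfl and the germline cohesin subunits, which all lie at 23.8 or lower.

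Over all their intervals, the 9 genes had folds close to those of the whole call. Of the 90 intervals, 53 (58.9%) had a fold below 3, against 59.0% of all intervals, and the median fold was 2.36 against 2.55. The 8 intervals over a canonical start had a median fold of 47.8 and a median width of 4036 bp. The 30 intervals in intron 1 and the 33 in other introns both had a median of 2.03, and the 6 in exons had the same median. The 12 upstream intervals had a median of 2.65. The 90 intervals held 239 summits, and 50 of them held a single summit.

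Meiotic cells replace several ring subunits by germline forms, and these genes were compared with their somatic counterparts. Smc1b, the paralog of Smc1a, had a start fold of 5.43, and the ratio of Smc1a to it was 6.95. Rad21l had no interval within 1000 bp of its start and at most 1.96 in its searched region, against 61.9 for Rad21. Rec8, another kleisin of meiotic cohesin, reached 20.6, so that the ratio of Rad21 to it was 3.00. Stag3 reached 23.8, and the ratios of Stag1 and Stag2 to it were 3.12 and 1.73. In each pair the somatic gene had the higher fold. The gap was narrowest for Stag2 over Stag3 and widest for Rad21 over Rad21l, whose start had no interval, with Ctcf over Ctcfl next. Stag2 is X-linked and Stag3 is not, and the ratio of Ctcf to Ctcfl rests on a fold near the lowest called.

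The other genes of the pathway were read from lists. All 10 genes that regulate cohesin loading, acetylation, release or cleavage had a canonical start fold of at least 5, with a median of 43.7, from 15.6 at Hdac8, which encodes the SMC3 deacetylase, to 78.1 at Sgo1, which encodes a protector of centromeric cohesin. All 8 partner and architectural factors passed the same value, with a median of 51.4, from 25.3 at Patz1, a zinc-finger gene, to 96.3 at Chd8, which encodes a chromatin remodeller that binds CTCF. All 12 condensin and SMC5/6 genes passed it, with a median of 55.1, and their highest interval anywhere ranged from 21.9 at Ncaph, a condensin kleisin gene, to 89.0 at Smc6. These counts stand against 66.2% of all protein-coding genes. At the gene start they were 8 of 10, 8 of 8 and 11 of 12, against 64.3% of all genes.

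Of 12 germline genes, 4 passed (3 at the gene start), and the median start fold of the 12 was 1.01. Prdm9, which encodes the histone methyltransferase that places meiotic recombination, had the highest start at 82.4. Ddx4, Sycp1, Tex101 and Hormad1 had no interval at all. Ctcfl, at 2.03, lay between these extremes, so that the germline genes ranged from no interval to one of the strongest starts of any list.

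**Figure D4:**
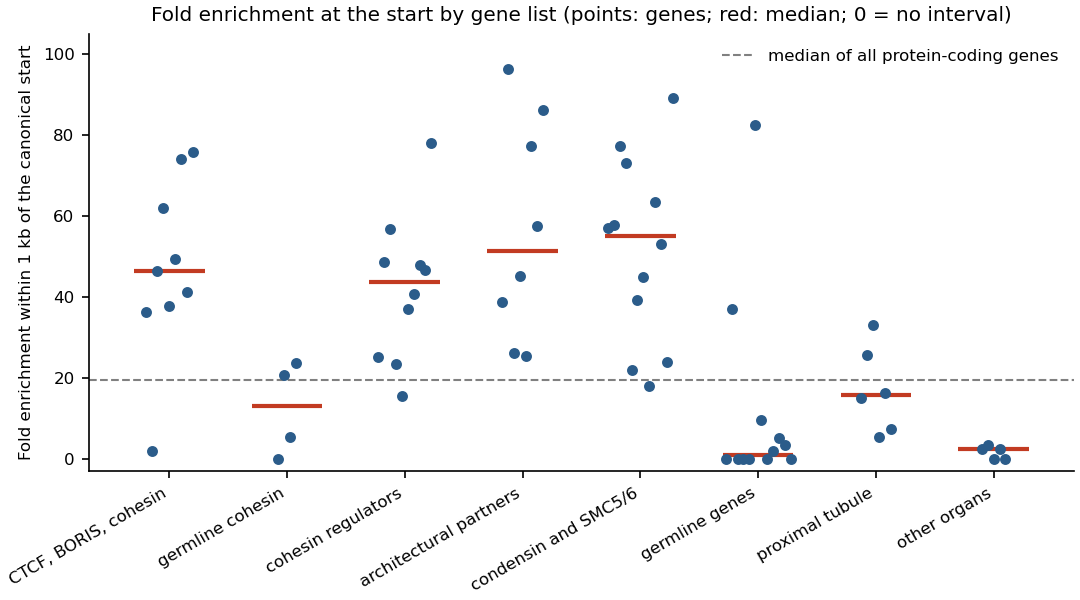
Fold enrichment within 1 kb of the canonical start (vertical axis) for each gene (points) of 8 lists (horizontal axis), with the list median as a red bar and the median of all protein-coding genes, 19.4, as a dashed line. Points at 0 are genes without an interval. Ctcfl is the low point of the first list, and the germline genes are spread from 0 to 82.4.

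The labelled tissue was checked against marker genes in the same way. All 6 proximal tubule markers had a start fold of at least 5, with Lrp2, the megalin gene, at 33.1, as had 3 of 4 thick limb and distal tubule markers and 1 of 4 collecting duct markers. The same held for 1 of 3 podocyte, 1 of 3 endothelial, 1 of 3 immune and 2 of 2 stromal markers, and for 0 of 5 markers of other organs. The proximal tubule marker Slc34a1 passed only through a wide interval whose highest summit, at 16.2, lay 18535 bp downstream of its canonical start. Its value is therefore not the height at the start itself. These counts are at the canonical start. At the gene start 5 of 6 proximal tubule markers passed, with Hnf4a at 1.96, and the other marker counts were the same. Of all protein-coding genes, 66.2% have a canonical start fold of at least 5. Only the proximal tubule, distal and stromal lists lay above that share, and the collecting duct, podocyte, endothelial and immune lists lay below it. The lists are small, and 1 gene fewer would put the distal or the stromal list below that share. The share of each cell type behind a pooled value is not known, and the part of other cell types in the values of the 9 genes was not tested.

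The CpG content of the promoter, taken from 250 bases before to 50 after the canonical start, separated Ctcfl from the other members. The share of G and C did not, at 59.7% for Ctcfl against 58.3% for Smc1a and 60.3% for Rad21. CpG content is given as the ratio of observed to expected CpG. It was 0.923 for Ctcf, 0.903 for Smc1a, 1.00 for Smc3, 0.989 for Rad21, 1.06 for Stag1, 1.15 for Stag2, 0.785 for Nipbl and 0.666 for Wapl, but 0.410 for Ctcfl, and the median of all protein-coding genes was 0.517. All 8 somatic genes were thus above the median and Ctcfl was below it. Over all genes, the share with a start fold of at least 5 was 23.2% where the ratio was below 0.25, 58.0% from 0.25 to 0.5, 89.6% from 0.5 to 0.75 and 96.0% above 0.75. Among the germline cohesin genes, Smc1b had a ratio of 1.15 and a start fold of 5.43, and Rec8 had a ratio of 0.454 and a start fold of 20.6. Stag3 had a ratio of 0.774 and a start fold of 23.8, and Rad21l had a ratio of 0.317 and no interval at its start.

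**Figure D5:**
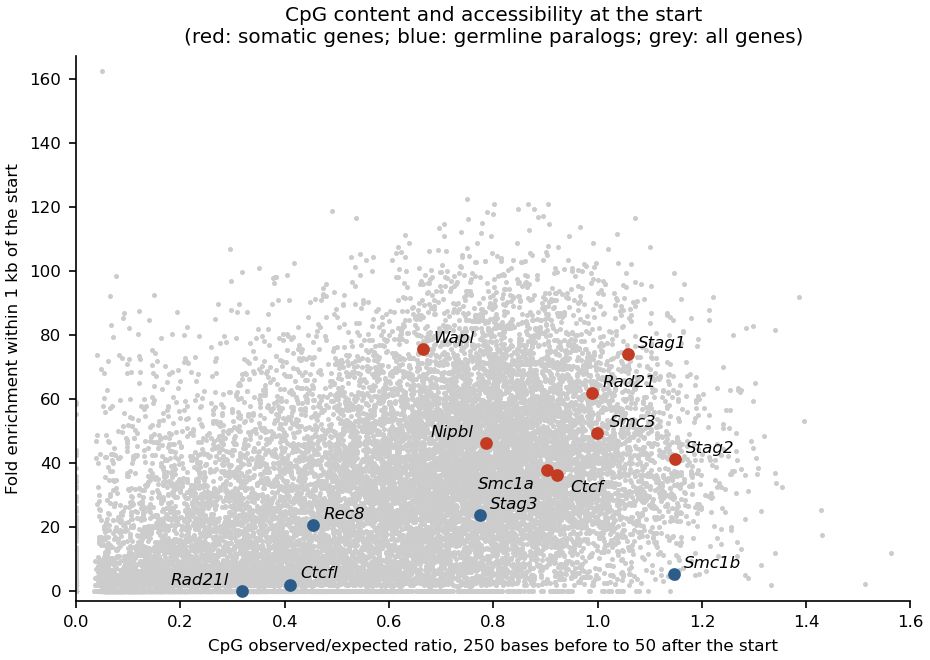
Fold enrichment within 1 kb of the canonical start (vertical axis) against the CpG observed/expected ratio of the promoter (horizontal axis) for all 21757 protein-coding genes (grey), the 8 somatic genes (red) and Ctcfl with 4 germline cohesin genes (blue). The red points lie at 0.666 or more, Ctcfl lies at 0.410 with a fold of 2.03, and Smc1b lies at 1.15 with 5.43.

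The 2 highest starts differed in the CpG count of the bases just upstream. Stag1 and Wapl are shown because they reached 74.2 and 75.7. Both runs are the 120 bases before the canonical start on the plus strand of GRCm39, with each CpG in capitals, at chr9:100525381-100525500 and chr14:34395338-34395457.
Stag1: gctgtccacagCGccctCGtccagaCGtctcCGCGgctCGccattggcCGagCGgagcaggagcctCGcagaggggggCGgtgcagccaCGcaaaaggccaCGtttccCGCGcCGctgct
Wapl: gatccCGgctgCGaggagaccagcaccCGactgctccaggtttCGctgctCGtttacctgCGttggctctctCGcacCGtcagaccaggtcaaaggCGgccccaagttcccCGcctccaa
The Stag1 run held 15 CpG and the Wapl run held 10. The highest Wapl summit lay at +336 bp, outside the run shown. The 120 bases before the canonical start of Nipbl held only 3 CpG, although its start fold was 46.3. Those of Smc1a, Rad21, Stag2 and Smc3 held 8, 13, 19 and 19.

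Short motifs were searched in the same 300-base windows on both strands. The SP/KLF box GGGCGG was present in 7 of 9 promoters, all but Ctcfl and Stag2, against 42.5% of all protein-coding promoters. The CTCF core AGGNGGC was present in 5 of 9, Ctcf, Ctcfl, Rad21, Stag2 and Wapl, against 30.6%, and Ctcfl held 4 copies. CCAAT was present in 5 of 9, against 39.9%. The ETS core CCGGAAG was found in Rad21 and Nipbl, against 10.3% of all promoters, and the YY1 letters AAGATGG in Ctcfl and Rad21, against 5.74%. The NRF1 letters TGCGCA, which read the same on both strands, were found in Rad21 only, against 9.39%. The E-box CACGTG, the CRE TGACGTCA and TATAAA were in none of the 9, against 7.82%, 2.45% and 13.2% of all promoters. Rad21 thus held the most kinds of these letters, and no match says that a factor was bound.

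Because CTCF and cohesin meet at CTCF sites, the intervals of their own genes were searched for CTCF letters within the 200 bases around each highest summit, on both strands. The core AGGNGGC was present in 14 of 90, or 15.6% (95% Wilson interval 9.50% to 24.4%, which covers counting error only), against 16.7% of all intervals. The longer CTCF consensus with 1 mismatch was present in 4 of 90, or 4.44% (1.74% to 10.9%), against 5.37% of all. Both ranges treat the 90 intervals as independent, though many share a gene, so that they give no test of a difference from all intervals. The 4 consensus matches lay in Ctcfl, Stag1 and Nipbl, and none was at a canonical start. The 3 matches beside that of Ctcfl are shown with the match in capitals, each on its own strand of GRCm39. They are at chr9:100799351-100799380 on the minus strand, in intron 22 of Stag1 at a fold of 3.86, at chr15:8411868-8411897 on the plus strand, in intron 1 of Nipbl at 4.26, and at chr15:8320892-8320921 on the minus strand, in exon 47 of Nipbl at 3.01.
Stag1 intron 22: agaaaccaTCACTAGGGGGCACtggagcaa
Nipbl intron 1: taagaacgCCACAAGAGGGCACactttcaa
Nipbl exon 47: gtcagtgtCCAGTGGATGGCAGgctcctac
The match lay within 2 bp of the summit in Stag1, at the summit in Nipbl exon 47, and 70 bp from it in Nipbl intron 1.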

How the data were processed

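The labels give ATAC-seq of kidney cortex nuclei for 3 WT and 3 Acly cKO libraries, grouped by genotype. The study's methods also name further WT libraries from an earlier deposit, which are not analysed here as samples and may be part of the pooled call. Per the study's methods and the submitters' processing notes, the authors used fastp to trim the reads and Bowtie2 2.3.4.3 to align them to mm39 (GRCm39), removed duplicates and reads without a unique position, called peaks with MACS3 3.0.0 (no model, extension 200 bp, shift 100 bp, q of 0.05, summits called) and used bedtools 2.29.1 to drop peaks in blacklisted regions or outside the standard chromosomes. deepTools 3.5.1 is also listed. The deposited list is 1 pooled call with 749750 summits in 279569 intervals, and which libraries entered it is not given in the sources used here. The authors' values are a ratio, the fold enrichment over background, and a −log10 q per summit. Among 1549 distinct fold values, 0 had more than 1 −log10 q, as a single background for all loci gives. Depth of single libraries is unknown, so no count-based precision can be given, and fold values recur because they rise in equal steps. A deposited summit list of −log10 q was used only to check that 0 summits of the 9 genes had been lost in filtering.

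From these files, each interval took the values of its summit with the highest −log10 q, and was placed against GENCODE M39 genes (GRCm39). Percentiles are the percent of 21757 protein-coding genes with a lower value. The 9 genes, the gene lists, the markers and the motifs were chosen with earlier results of these data known. The genes named are the members, genes that start in a member's highest interval, each member's next 3 intervals, the germline cohesin genes, and in each list the genes with the highest and the lowest strongest fold. Likeness of pattern was not computed, since there is 1 pooled value per gene. A planned comparison of protein sequences was not run, because no protein sequence table was used here. Scripts ran in Python 3.11.15 with pandas 2.3.3, pysam 0.24.0 and scipy 1.17.1, and were tested on simulated intervals. Alternatives varied the threshold, the region, the start, the window and the motif.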

Additional observations from a re-analysis of the deposited data

How the results depend on the processing

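No paired analysis was possible because the deposited call is pooled and holds no column for a single library, and for the same reason no replicate could be left out and no replicate block fitted. The number of intervals at the 9 genes was 90, and became 239 with each summit taken as a unit, 45 where q had to be below 1e-05 and 20 where the fold had to be 5 or more. The median intervals per 10 kb fell to 0.413 and 0.206 under those last 2 thresholds. The median highest fold, 46.3, became 41.2 within 1000 bp of the gene start, where Stag1 is read at its annotated start. The ratio of Ctcf to Ctcfl, 3.38 over the searched region, became 1.73 with 10 kb on either side, where an interval of fold 21.0 lies 8300 bp from Ctcfl with no gene start in it, and 17.9 within 1000 bp of the start; Ctcf was higher in each. The share of windows with CTCF letters in the 9 genes became 4.44% with the longer consensus, and that of all intervals became 5.37% with it, 10.0% with windows of 100 bp and 26.7% with 400 bp. The 9 genes had 11.1% and 22.2% in those windows, so that they lay above all intervals at 100 bp and below them at 200 and 400 bp. The count of members with an interval at the start was 7 to 9 over 8 alternatives. The canonical start was chosen after seeing the data, when the annotated start of Stag1 was seen to lie far from its highest interval. Against X-linked genes alone, the start percentiles of Smc1a and Stag2 rose to 88.3 and 91.0. Library depth, which sets how weak an interval can be called, is unknown.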
